A study of Homo sapiens with 12 samples.

Results

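Integrins are the receptors by which a cell holds on to the matrix around it, and each is a pair of an alpha and a beta subunit. The alpha subunit largely sets which ligand is bound: alpha1, alpha2 and alpha11 bind collagens, alpha3 and alpha6 bind laminins, and alpha5 and alphaV bind proteins with an RGD motif such as fibronectin and vitronectin. Inside the cell the beta subunit is linked by talin and kindlin to actin at focal adhesions, while beta4, which pairs with alpha6, is linked to keratin filaments in the hemidesmosomes that anchor basal epithelial cells, those of the bladder lining included. The 10 subunits described here were taken by gene symbol from the 60504 genes of the deposited tables: the alpha genes ITGA1, ITGA2, ITGA3, ITGA5, ITGA6, ITGA11 and ITGAV and the beta genes ITGB1, ITGB3 and ITGB4.

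All RNA was from T24, a human cell line set up from a bladder cancer, and was sequenced as 12 libraries. U11 is a small nuclear RNA of the minor spliceosome. In the knockout comparison 2 libraries carry the label U11 knockout (KO-labelled libraries in what follows). They came from a line that was made with a pair of Cas9 guides and grown from a single cell, and 2 libraries of untreated T24 were their controls. In the overexpression comparison 6 libraries carry the label U11 overexpression, from cells transfected with a U11 plasmid and selected as clones, with the line labels 79, 86 and 87 on 2 libraries each, and 2 other untreated T24 libraries. Library codes put 4 of these 8 in a series called A here and 4 in a series called B, with each line label and the untreated control present once in each. A line that is a single clone cannot be told apart from its treatment, and nothing says that libraries of a group came from separate cultures, so the P values measure the spread between these libraries.

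U11 itself went against one label in these libraries. By quantitative PCR, the paper reported less U11 in the knockout line, and more in the overexpression line, than in wild-type T24. In TPM, a measure of transcript abundance scaled by transcript length and to the same total in each library, the controls of the knockout comparison read 21.4 and 23.8 and the KO-labelled libraries read higher, 31.6 and 37.4. It was at 0.03 and 0.62 TPM in the overexpression controls, 0.18 and 0.41 in line 79, 3.98 and 3.72 in line 86, and 61.9 and 53.6 in line 87. By TPM, the line 79 libraries therefore lay within the range of their controls. How well these libraries capture a small RNA such as U11 was not tested, so the values may not gauge U11 in the cells. Aligned bases ran from 9.07 to 15.33 gigabases a library. The 10 most abundant genes held 45.5% to 49.6% of all TPM in the knockout comparison but 7.06% to 7.56% in the overexpression comparison, so TPM levels were compared within a comparison only. The keratin genes KRT7, KRT8, KRT18 and KRT19 were high in every library, while 5 of 12 urothelial and epithelial markers, the uroplakin genes UPK1A, UPK2 and UPK3A with KRT5 and CDH1, stayed under 1 TPM in all 12.

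The most abundant member, ITGB1, needs its sequence read first. The tables also list ITGB1P1, a processed pseudogene on the minus strand of chromosome 19 (hg38 chr19:14621634-14622242), and all 609 bases of it are found without a difference in ITGB1 messenger RNA, whole in 13 of 26 protein-coding ITGB1 transcripts of GENCODE release 44. They lie in the coding sequence and run across 3 joins of ITGB1 exons. The last 150 bases of the pseudogene, as long as a sequencing read of this study, are shown because a read from them fits both genes equally well, with the 10 bases on each side of the last of these exon joins in capitals (chr19:14621634-14621783, minus strand, 5′ to 3′).
ITGB1P1: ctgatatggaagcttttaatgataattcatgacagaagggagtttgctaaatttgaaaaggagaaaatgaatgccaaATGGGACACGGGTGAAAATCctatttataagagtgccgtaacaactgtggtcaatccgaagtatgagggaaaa

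In the knockout comparison ITGB1P1 was listed at 121 to 193 TPM, and in the overexpression comparison it was listed at 203 to 323 TPM, which was 0.26 to 0.38 of the ITGB1 value in the same library. How the aligner shared such reads is not given in the sources used here, so the ITGB1 values are uncertain. Both entries moved alike: in the KO-labelled libraries the mean of ITGB1 was 1.42 times, and that of ITGB1P1 1.46 times, the control mean.

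The genes lie on 6 chromosomes, and some are neighbours. ITGA1 (chr5:52787896-52959210) and ITGA2 (chr5:52989326-53094779) follow each other on the plus strand of chromosome 5, ITGA6 and ITGAV lie on chromosome 2, and ITGA3, ITGB3 and ITGB4 on chromosome 17. ITGA5 (chr12:54395261-54419460), ITGB1 (chr10:32900319-33005792) and ITGA11 (chr15:68296533-68432162) lie on minus strands.

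The order of the subunits was steady. Since TPM is scaled by transcript length, levels can be ordered within a library. ITGB1, the shared partner of most alpha subunits, had rank 1 of the 10, ITGA3 rank 2, ITGA6 rank 3, ITGB3 rank 7 and ITGA1 rank 8 in all 12 libraries. ITGA2, ITGA5 and ITGAV held the ranks from 4 to 6 and changed places between groups. ITGB4 and ITGA11 came last, both at or below 2.03 TPM throughout. The laminin binding ITGA3 and ITGA6 together held 61.6% to 79.7% of the summed TPM of the 7 alpha subunits. For alpha6beta4, the hemidesmosome receptor, ITGB4 never passed 2.03 TPM while ITGA6 never fell under 62.2 TPM. RNA does not show which subunits are paired in the membrane.

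**Figure D1:**
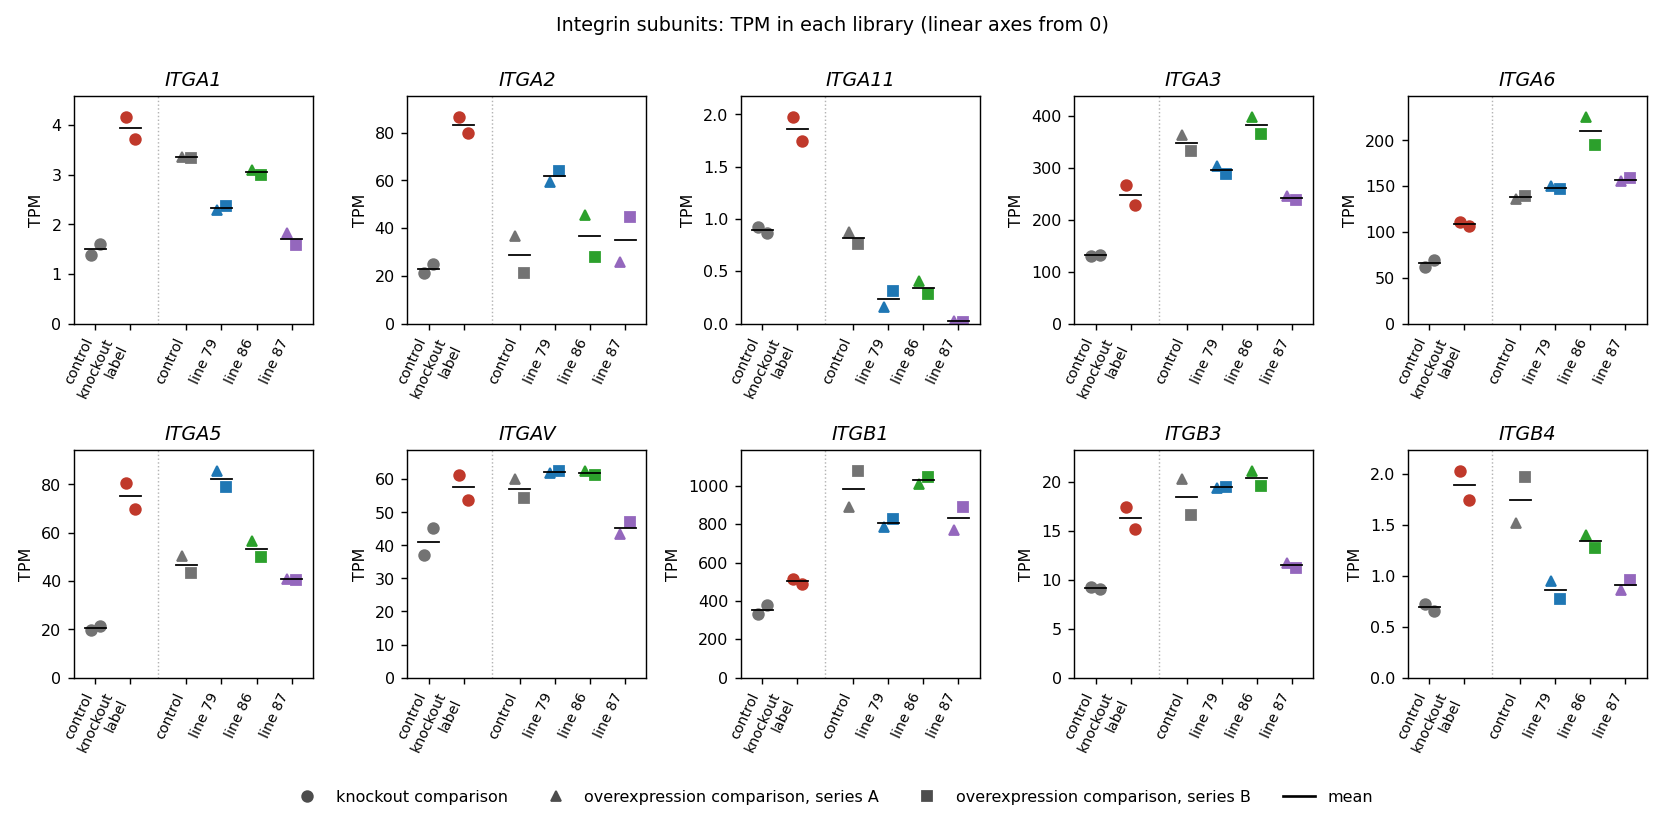
TPM of each of the 10 subunits in each of the 12 libraries, on linear axes that start at 0, with black bars at group means and the dotted line between the comparisons. All 10 subunits are higher in both KO-labelled libraries than in either control, while in the overexpression comparison the line labels differ among themselves.

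The first question was whether the subunits differed between the KO-labelled libraries and their controls. All 10 were higher, with no overlap of the groups, which was also true of 39.9% of all 14356 genes tested, while 20.4% were lower with no overlap. A gene was called when its P was under 0.05 in limma and its change on the log2(TPM + 1) scale at least 1.5-fold, and 8 of the 10 were called higher and none lower. Over all genes 8.61% were called higher and 3.15% lower. With the adjusted P (Benjamini-Hochberg, over all genes tested) under 0.05 in addition, 7 of the 10 remained higher, beside 4.78% of all genes, with 2.08% of all genes lower. The median log2 change of the 10 was 0.77, against 0.11 over all genes, and the all-gene median moved to -0.02 with median ratio scaling, under which the 10 were still all higher. ITGA11 and ITGB4 entered the test only through the KO-labelled libraries, since their controls were under 1 TPM, so their place among the 8 was partly set by that filter. Of the other 8 members, 6 were called.

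The collagen receptor alpha2 and the fibronectin receptor alpha5 rose most. ITGA2 was at 21.1 and 24.7 TPM in controls, against 86.7 and 79.7 TPM in the KO-labelled libraries. Its mean was 3.63 times that of the controls, with a log2 change of 1.82 ± 0.12 (SE) and an adjusted P of 0.00702. ITGA5, whose product pairs with beta1 alone to form the main fibronectin receptor, was at 19.9 and 21.5 TPM and at 80.5 and 70.0 TPM. Its log2 change was 1.81 ± 0.11 with an adjusted P of 0.00644. Both genes were thus several times the control level in both libraries, while the controls stayed within 4 TPM of each other.

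The promoters of ITGA2 and ITGA5 are shown because these members moved furthest together. RefSeq windows (GRCh38.p14) were at hand for 7 of the 10 members, in 10 windows, and not for ITGA3, ITGB3 and ITGB4. The 250 bases before the RefSeq start were searched on both strands. The motifs were TGANTCA (AP-1), GGGCGG (the GC box of SP and KLF factors) and GGAATG (TEAD), none of which overlap in the windows printed. RefSeq starts differ from those of the gene spans given above, so most of the ITGA5 window and the end of the ITGA2 window lie inside those spans. Matches are in capitals, 5′ to 3′ on the gene's strand, for ITGA5 at chr12:54419267-54419516 (minus strand) and for ITGA2 at chr5:52989102-52989351 (plus strand).
ITGA5: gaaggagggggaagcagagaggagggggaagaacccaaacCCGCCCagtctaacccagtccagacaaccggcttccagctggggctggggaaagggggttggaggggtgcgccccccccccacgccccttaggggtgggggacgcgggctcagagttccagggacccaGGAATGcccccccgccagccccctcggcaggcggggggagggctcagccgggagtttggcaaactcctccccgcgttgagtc
ITGA2: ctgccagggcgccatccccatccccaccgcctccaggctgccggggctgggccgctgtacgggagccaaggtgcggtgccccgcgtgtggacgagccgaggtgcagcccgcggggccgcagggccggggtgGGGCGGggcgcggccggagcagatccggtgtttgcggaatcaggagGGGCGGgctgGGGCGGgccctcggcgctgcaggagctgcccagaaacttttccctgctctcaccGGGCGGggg

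ITGA2 held 4 GC boxes and ITGA5 held 1, with 1 TEAD match in ITGA5. Of the 10 member windows, 4 held a GC box, 2 a TEAD match and 0 an AP-1 match. Of all 35116 RefSeq windows of this length, 42.6% held a GC box, 11.9% a TEAD match and 6.57% an AP-1 match. These are matches of letters and not sites of binding.

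ITGA1, the other collagen receptor subunit that neighbours ITGA2 on chromosome 5, was low and also rose. It was at 1.38 and 1.61 TPM in controls, against 4.17 and 3.72 TPM in the KO-labelled libraries, a log2 change of 0.98 ± 0.13 with an adjusted P of 0.026. The gene PELO lies inside ITGA1 on the same strand and was at 12.004 to 26.6 TPM over the 12 libraries, and reads of their shared bases cannot be told apart. ITGA11, a collagen receptor subunit best known from fibroblasts, was at 0.92 and 0.86 TPM and at 1.98 and 1.75 TPM, and its log2 change of 0.60 ± 0.13 passed the unadjusted threshold with an adjusted P of 0.0578. That call was lost with FPKM (0.46), with median ratio scaling (0.51) and with quantile normalization (0.48). The fibroblast markers were low in the same libraries, at a summed 0.81 to 1.48 TPM, with DCN and LUM at or under 0.055 TPM. Most of that sum was PDGFRB, at 0.79 and 0.78 TPM in controls and at 1.38 and 0.93 TPM in the KO-labelled libraries. PDGFRA was at or under 0.122 TPM. The part of such cells was not tested.

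The alpha subunits of the laminin receptors rose less. ITGA3 was at 130.0 and 133 TPM in controls, against 267 and 229 TPM in the KO-labelled libraries, with a log2 change of 0.91 ± 0.10 and an adjusted P of 0.0203. ITGA6 was at 62.2 and 69.9 TPM and at 111 and 107 TPM, with a log2 change of 0.72 ± 0.10 and an adjusted P of 0.0268. The ITGA6 change was 0.57 with median ratio scaling, under the 1.5-fold limit. ITGB4 was at 0.73 and 0.66 TPM and at 2.03 and 1.75 TPM, with a log2 change of 0.77 ± 0.13 and an adjusted P of 0.0383. The 1 TPM added before the log makes changes of such low genes smaller. The means of ITGB4, ITGA1 and ITGA11 were 2.73, 2.63 and 2.09 times those of the controls. GALK1 overlaps ITGB4 on the opposite strand and was at 11.8 to 32.6 TPM over the 12 libraries, and whether strand was used in counting is not given in the sources used here.

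Among the other subunits, ITGB3 rose and ITGAV and ITGB1 were not called. ITGB3, the beta subunit of the vitronectin receptor alphaVbeta3, was at 9.28 and 9.08 TPM in controls, against 17.5 and 15.2 TPM in the KO-labelled libraries, with a log2 change of 0.76 ± 0.12 and an adjusted P of 0.035. Its partner ITGAV was at 37.0 and 45.2 TPM and at 61.4 and 53.8 TPM, with a log2 change of 0.48 ± 0.14 and an adjusted P of 0.101. ITGB1 was at 332 and 377 TPM and at 517 and 487 TPM, and its log2 change of 0.50 ± 0.09 had an adjusted P of 0.0455 but was under 1.5-fold. Without control replicate 2, both ITGAV (0.62) and ITGB1 (0.59) were called and ITGA11 (0.58) was not.

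**Figure D2:**
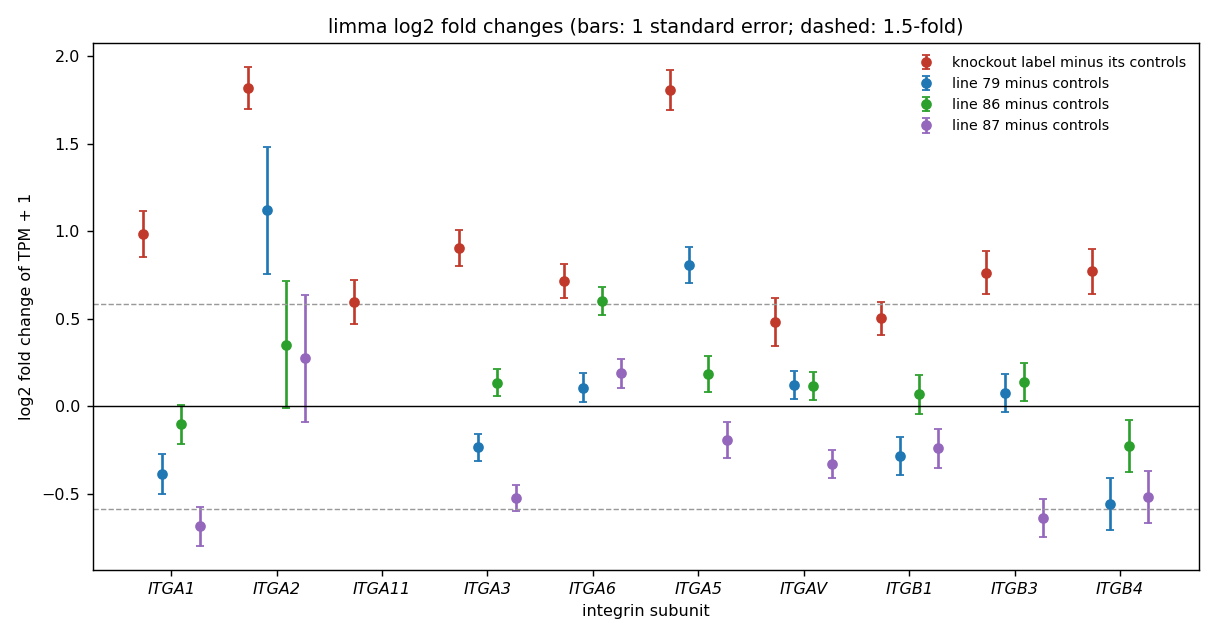
limma log2 fold change of TPM + 1 (vertical axis) for each subunit in the KO-labelled libraries and in lines 79, 86 and 87, each against its own controls, with bars of 1 standard error and dashed lines at 1.5-fold. ITGA2 and ITGA5 stand at 1.82 and 1.81 in the KO-labelled libraries, and the points of the 3 lines lie on both sides of 0. ITGA11 was not tested in the lines.

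Seen as receptor pairs, the make-up shifted as well as the level. The collagen binding alpha subunits held 8.58% and 9.18% of the summed TPM of the 7 alpha subunits in the controls and 15.1% and 15.6% in the KO-labelled libraries. The laminin binding subunits held 70.5% and 68.4% in the controls and 61.7% and 61.6% in those libraries. The 2 RGD binding subunits together went from 20.9% and 22.5% to 23.1% and 22.8%, and within them ITGA5 went from 7.31% and 7.24% to 13.1% and 12.9% while ITGAV went from 13.6% and 15.2% to 10.004% and 9.89%. ITGB1 stood at 1.22 and 1.27 times the summed alpha subunits in the controls and at 0.84 and 0.89 times in the KO-labelled libraries. With the ITGB1P1 entry added, ITGB1 was at 710 and 671 TPM in the KO-labelled libraries, above the summed alpha subunits at 613 and 544 TPM, so whether beta1 falls below the alpha subunits there depends on where the shared reads are placed. These shares were not tested.

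**Figure D3:**
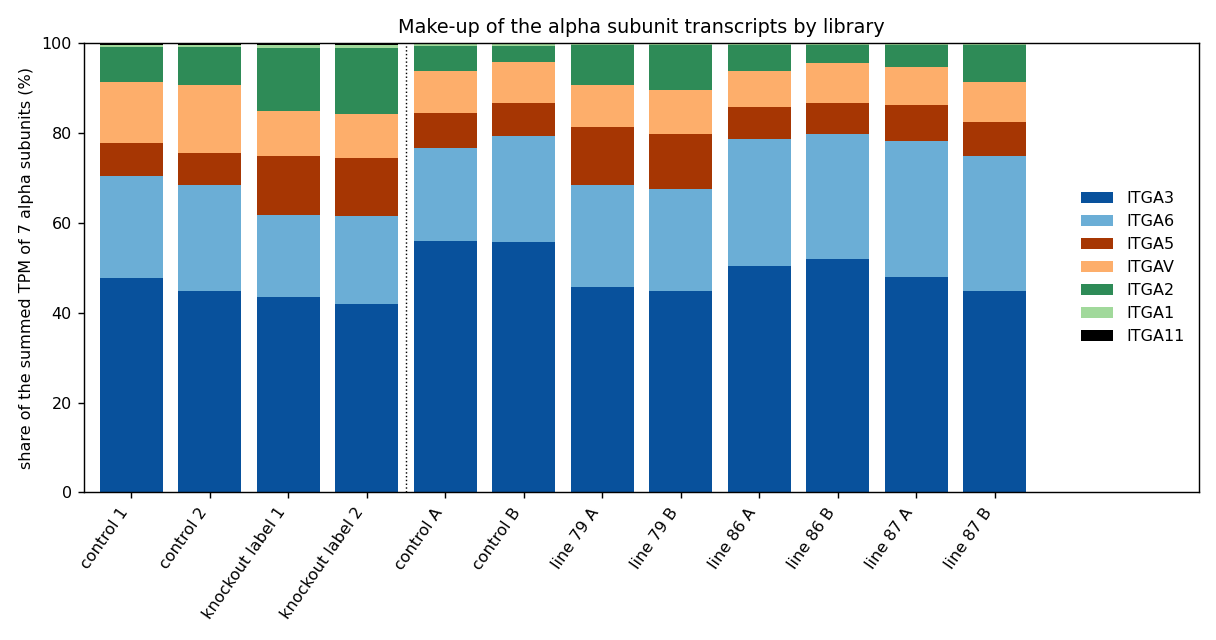
Share in percent of the summed TPM of the 7 alpha subunits held by each (stacked bars, 1 for each library), with the dotted line between the comparisons. The green part, mostly ITGA2, and the dark orange part, ITGA5, are wider in the KO-labelled libraries and in line 79 than in their controls.

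In the ligand lists, most genes tested were higher beside their receptors. The gene lists used here were chosen with earlier results of these data known. Of 12 RGD and matricellular ligands, 10 were tested and 9 were called higher in the KO-labelled libraries (8 with adjusted P under 0.05), beside 8.61% and 4.78% of all genes, and their median log2 change was 1.13 against 0.11 over all genes. FN1, which encodes fibronectin, the ligand of alpha5beta1, was at 932 and 1014 TPM in controls, against 3572 and 2727 TPM in those libraries, a log2 change of 1.68 ± 0.14 with an adjusted P of 0.0124. The matricellular genes CCN2 (1.66 ± 0.10), THBS1 (1.48 ± 0.12) and TNC (1.33 ± 0.22) rose with it on the log2 scale. TNC, at 0.64 and 0.81 TPM in controls, entered the test only through the KO-labelled libraries, and so did 1 gene of the 6 in the next list, COL1A1. Of 17 collagen and laminin genes, 12 were tested and 6 were called higher (5 with adjusted P under 0.05) and none lower. COL6A1 (-0.32 ± 0.11) and COL6A2 (-0.10 ± 0.08) were lower but not called. The laminin genes LAMA4 (1.01 ± 0.15), LAMC1 (0.81 ± 0.10) and LAMB2 (0.80 ± 0.15) and the basement membrane collagen gene COL4A1 (1.00 ± 0.10) were the members of this list that changed most.

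Few genes of the machinery inside the cell were called. Of 22 focal adhesion genes 21 were tested and 2 were called higher: TNS1, a tensin that links integrins to actin, at 2.39 ± 0.22, and NEDD9, a docking protein of focal adhesions, at 1.21 ± 0.12 on the log2 scale. That is near the 8.61% of all genes called higher, and the list's median log2 change was 0.15. Of 11 genes of integrin activation 10 were tested and 2 were called higher, TLN2, the less common talin (1.02 ± 0.14), and FERMT3, the kindlin of blood cells (0.70 ± 0.16, adjusted P 0.0649). Both were under 1 TPM in the controls and entered the test only through the KO-labelled libraries. Among 6 integrin-binding tetraspanins CD63 rose (0.68 ± 0.09). Of 7 hemidesmosome partners 6 were tested, and DST (0.98 ± 0.36) and LAMA3 (0.65 ± 0.24) were called higher, beside 8.61% of all genes. Each had an adjusted P above 0.15. LAMA3 was at 0.84 and 1.07 TPM in the controls, so it too passed the filter only through the KO-labelled libraries. None of the 3 tested of 16 other integrin subunits was called: ITGAE stood at 0.46 ± 0.10, ITGB5 at 0.46 ± 0.11 and ITGB8 at 0.16 ± 0.19.

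The second question was whether the subunits differed between the 6 libraries labelled U11 overexpression and their controls. No member was called, of 9 tested, beside 0.767% of 15768 genes called higher and 1.16% called lower (0.0507% and 0.114% with adjusted P under 0.05). At an unadjusted P under 0.05 alone there was 1, ITGB4, with a log2 change of -0.43 ± 0.17 and an adjusted P of 0.734. ITGA11 was under 1 TPM in all 8 libraries and was not tested. The 9 were higher in 3 cases and lower in 6, with a median log2 change of -0.14 against -0.02 over all genes. ITGA6 was higher in all 6 libraries than in either control, as were 4.62% of all genes, and ITGA1 and ITGB4 were lower in all 6, as were 5.24%.

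Within the overexpression group the lines differed. The F test over the 3 line labels found an adjusted P under 0.05 for 6 of the 9 members tested, beside 16% of all genes. The count was 3 without either library of line 79 or without the series A library of line 86. Each line was then compared with the same 2 controls, so that these comparisons are not independent of each other. At most 2 members were called in any line, and they were other members in each.

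In line 79 the subunits called were those that changed most in the KO-labelled libraries, ITGA2 and ITGA5. These 2 of 9 were called higher, beside 2.43% of all genes, and none lower, beside 5.52%. With adjusted P under 0.05 ITGA5 remained, beside 1.64% of all genes higher and 3.99% lower. ITGA5 was at 50.4 (series A) and 43.2 TPM (series B) in controls, against 85.7 and 79.1 TPM in line 79, with a log2 change of 0.81 ± 0.10 and an adjusted P of 0.00663. The change was 0.75 within series A and 0.86 within series B. In lines 86 (56.6 and 50.0 TPM) and 87 (41.0 and 40.4 TPM) ITGA5 was not called, and it differed between the lines (adjusted P of the F test 0.00424). ITGA2 was at 36.6 and 21.1 TPM in controls, against 59.3 and 64.0 TPM in line 79, with a log2 change of 1.12 ± 0.36 and an adjusted P of 0.118. Its change was 0.68 within series A and 1.56 within series B, and the call was lost without the series B control (0.74) and without either library of line 79 (1.07 and 1.18).

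ITGA2 was the least steady member of the overexpression comparison. It was at 45.5 and 28.1 TPM in line 86 and at 25.7 and 44.5 TPM in line 87, and its F test had an adjusted P of 0.257. In the controls and line 86 the series A library was higher, while in lines 79 and 87 the series B library was. Averaged over the lines, its log2 change was 0.17 within series A and 1.00 within series B.

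As a share of the alpha subunits, the RGD binding pair held 22.2% and 22.0% in line 79 against 16.9% and 16.4% in the controls, and 15.0% to 16.5% in lines 86 and 87. The laminin binding subunits held 68.5% and 67.6% in line 79 and 76.8% and 79.4% in the controls. Markers of other cells moved in the same line: CDH5, an endothelial cadherin, was at 34.1 and 32.2 TPM in line 79, at 3.43 and 3.08 TPM in controls, and at 4.17 to 5.28 TPM in lines 86 and 87. The other endothelial and platelet markers did not, with PECAM1 and VWF at or under 0.297 TPM in every library. CDH5 was also at 0.03 TPM in both KO-labelled libraries against 4.85 and 4.75 TPM in their controls, the opposite order. The part of such cells in these results was not tested.

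In line 86 the laminin receptor subunit ITGA6 was called higher, 1 of 9, beside 1.59% of all genes called higher and 2.01% lower (0.59% and 0.78% with adjusted P under 0.05). ITGA6 was at 136 and 139.7 TPM in the controls, 226 and 194 TPM in line 86, 151 and 146 TPM in line 79 and 155 and 159 TPM in line 87. Its log2 change in line 86 was 0.60 ± 0.08 with an adjusted P of 0.024, and it lay so near the 1.5-fold limit that the call was lost with FPKM (0.58), without the series A control (0.58) and without the series A library of line 86 (0.49). It differed between the lines with an adjusted P of 0.0172. Its laminin receptor relative ITGA3 was at 365 and 332 TPM in the controls and 399 and 366 TPM in line 86, a log2 change of 0.14 ± 0.08 that was not called.

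In line 87, the line with the highest U11 TPM, the subunits called were lower: ITGA1 and ITGB3, 2 of 9, beside 3.05% of all genes called lower and 2.08% higher. With adjusted P under 0.05 both remained, beside 1.55% of all genes lower and 1.1% higher. ITGA1 was at 3.36 and 3.34 TPM in controls, against 1.83 and 1.58 TPM in line 87, and it fell by 0.68 ± 0.11 on the log2 scale (adjusted P 0.0309). ITGB3 was at 20.3 and 16.7 TPM in controls, against 11.7 and 11.2 TPM in line 87, and it fell by 0.64 ± 0.11 (adjusted P 0.0336). Both calls were lost with FPKM, where the log2 changes were -0.47 and -0.57, and that of ITGB3 also without the series A control (-0.50). ITGA3, at 246 and 238 TPM in line 87, had a log2 change of -0.52 ± 0.08 with an adjusted P of 0.0203, under the 1.5-fold limit.

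Both subunits of the vitronectin receptor were lowest in line 87. ITGAV was at 60.0 and 54.3 TPM in the controls, 62.0 and 62.5 TPM in line 79, 62.6 and 61.4 TPM in line 86 and 43.4 and 47.2 TPM in line 87. ITGB3 was at 19.5 in both libraries of line 79 and at 21.2 and 19.6 TPM in line 86. Both line 87 values of each gene were below those of the other 6 libraries. The share of all genes with such a split was not computed. The F tests had adjusted P of 0.0163 for ITGAV and 0.00831 for ITGB3, and against the controls ITGAV had a log2 change of -0.33 ± 0.08 (adjusted P 0.0881). ITGB5, which encodes another beta partner of alphaV, was at 64.7 and 60.1 TPM in line 87 and at 53.0 to 71.9 TPM in the other libraries, and was not called.

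The remaining members were ITGA11, ITGB1 and ITGB4. ITGA11 was at 0.88 and 0.76 TPM in the controls, at 0.15 and 0.31 TPM in line 79, at 0.40 and 0.28 TPM in line 86 and at 0.03 and 0.01 TPM in line 87. All 6 line values were below both controls, as were those of 5.24% of the genes tested. Its coverage was 0.05 to 2.50 aligned bases a position in these 8 libraries, and with no filter its change in line 87 was -0.83 ± 0.11 with an adjusted P of 0.0935. ITGB1 was at 891 and 1079.6 TPM in controls, with 773 to 1049 TPM in the lines, and ITGB4 was at 1.52 and 1.97 TPM in controls, with 0.78 to 1.41 TPM in the lines. Neither was called in any line, and the F tests had adjusted P of 0.124 and 0.282.

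Some of the ligands were lower in line 87. Of the 10 RGD and matricellular ligands tested, 5 were called lower (4 with adjusted P under 0.05) and none higher, beside 3.05% and 2.08% of all genes, with a median log2 change of -0.60 against -0.01 over all genes. CCN2 went the other way, with a log2 change of 0.33 ± 0.06 (adjusted P 0.0331) that was under 1.5-fold. TNC, which encodes tenascin C, was at 12.3 and 11.7 TPM in controls, against 0.00 and 0.02 TPM in line 87. THBS1 fell by 1.99 ± 0.07 and FN1 by 0.86 ± 0.06 on the log2 scale. FN1 stood at 1074 and 1069 TPM in line 87 and at 1997 and 1901 TPM in the controls. Of the 12 collagen and laminin genes tested, 2 were called lower in line 87, COL4A1 (-1.06 ± 0.08) among them, and 1 higher. In line 79, 2 of the 10 RGD and matricellular ligands were called higher, CCN2 (0.73 ± 0.06) among them, and 1 lower, THBS1 (-1.02 ± 0.07), beside 2.43% and 5.52% of all genes. In line 86 TNC was the 1 called (-1.23 ± 0.16, lower), beside 2.01% of all genes. TNS1 was called higher in lines 79 (1.54 ± 0.15) and 86 (0.64 ± 0.15) and lower in line 87 (-0.80 ± 0.15), and NEDD9 was called higher in lines 79 (0.74 ± 0.10) and 87 (1.70 ± 0.10).

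The last question was whether the change in the KO-labelled libraries differed from that in the libraries labelled U11 overexpression. In a fit of all 12 libraries, the difference between the changes was positive for all 10 members and called (adjusted P under 0.05 and at least 1.5-fold) for 7, beside 6.33% of 16404 genes, with 2.42% called in the other direction. Of these 7, ITGA5 had the largest difference, 1.54 ± 0.14 on the log2 scale (adjusted P 3.09e-04), followed by ITGA1 with 1.38 ± 0.14 (5.6e-04), ITGA11 with 1.21 ± 0.16 (0.00208), ITGB4 with 1.20 ± 0.16 (0.0024) and ITGA3 with 1.11 ± 0.11 (5.95e-04). ITGB3 followed with 0.90 ± 0.14 (0.00485), and ITGB1 was nearest the limit with 0.65 ± 0.14 (0.019). ITGA2 (1.24 ± 0.41, adjusted P 0.0908), ITGAV (0.51 ± 0.14, adjusted P 0.0505) and ITGA6 (0.42 ± 0.11, under 1.5-fold) were not called. ITGA11 reached 1 TPM only in the KO-labelled libraries and entered this test through them, so its place among the 7 was partly set by the filter. The ITGB1 call was lost with FPKM (0.55), median ratio scaling (0.49) and no filter (adjusted P 0.073). The comparisons came from different library series, which differed widely in histone RNA and in the share of TPM held by the most abundant genes. These differences cannot be told apart from the treatments.

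For each member, the gene with the most similar pattern over the 8 libraries of the overexpression comparison was found by Pearson's r of log2(TPM + 1), among genes with a mean of at least 5 TPM. The highest r was that of FURIN, which encodes a proprotein convertase, for ITGA3 (0.995), then came H2AFY2 for ITGA1 (0.99), SMAD7 for ITGAV (0.988), LRP1 for ITGB3 (0.986), DSCR3 for ITGB1 (0.985) and PRSS3 for ITGA5 (0.983). For the rest they were TNFRSF21 for ITGA11 (0.967), ZWILCH for ITGB4 (0.965), ARHGEF2 for ITGA6 (0.962) and ZNF669 for ITGA2 (0.943). Each was the best of 11165 or 11166 genes on 8 points that share lines and controls, so these values are a description. No member had another member as its nearest gene.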

How the data were processed

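RNA of 12 T24 libraries was measured by paired-end RNA sequencing. As stated in the paper's methods, the authors cleaned reads with Fastp, aligned them to hg38 with Hisat2 and ran Stringtie on each library (versions and strand are not given in the sources used here). The paper names ribosomal RNA depletion and the labels name polyA RNA. Histone cluster genes summed to 27662 to 34279 TPM in libraries of the knockout comparison and to 103 to 180 TPM in those of the overexpression comparison. The comparisons thus hold unlike RNA, and how each library was made was not tested. The deposited tables hold coverage (aligned bases per position), FPKM and TPM for each gene. The files used here hold no counts, so DESeq2, which the authors used, was not run. Depth, estimated from the ratio of coverage to FPKM, was 9.07 to 15.33 gigabases a library. Without counts no counting interval was computed, and precision is the spread between libraries.

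Linear models of log2(TPM + 1) were fitted with limma (version 3.58.1, R 4.3.3, eBayes with a trend). Genes entered when 2 of the libraries compared, or more, reached 1 TPM, and P was adjusted by Benjamini-Hochberg over all of them. Calls used the paper's thresholds, P under 0.05 and 1.5-fold. The member genes, gene lists and tests were chosen with earlier results of these data known. All members are named, and from each list the genes called in either label comparison, at most 4 by size. One list gene that the rule chose is not reported here. For the lines, some of the same genes and ITGB5 are given. CCN2 is listed under an older symbol and was matched by gene ID. Alternatives were a pseudocount of 0.1, FPKM, median ratio scaling, quantile normalization, other filters, all libraries in one fit, blocks, adjusted P, each library left out and, added after seeing the data, ITGB1 and ITGB1P1 summed. Sequences are from GENCODE release 44 transcripts and RefSeq, and coordinates of genes are those of the hg38 files. limma was tested on simulated data with 200 changed genes, by unadjusted P under 0.05 and 1.5-fold. In the knockout design 189 of them were called, and so were 159 unchanged genes. In the overexpression design these counts were 194 and 121.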

Additional observations from a re-analysis of the deposited data

Results flagged for a closer look

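Some effects differed between groups by a test of the difference itself. Between the line labels 79, 86 and 87, the F test in limma gave adjusted P of 0.00424 for ITGA5, 0.00636 for ITGA3, 0.00831 for ITGB3, 0.0163 for ITGAV, 0.0172 for ITGA6 and 0.037 for ITGA1. ITGA5 was highest in both libraries of line 79, ITGA6 and ITGA3 in both of line 86, and ITGA3, ITGAV, ITGB3 and ITGA1 were lowest in both of line 87. How many of all genes show such an order was not counted. Direct differences of lines had a log2 size of -0.998 ± 0.103 for ITGA5 (line 87 minus line 79, adjusted P 0.00275) and -0.78 ± 0.11 for ITGB3 (line 87 minus line 86, adjusted P 0.0119).

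The change in the KO-labelled libraries differed from that in the libraries labelled U11 overexpression for ITGA5 (adjusted P 3.09e-04), ITGA1 (5.6e-04), ITGA3 (5.95e-04), ITGA11 (0.00208), ITGB4 (0.0024), ITGB3 (0.00485) and ITGB1 (0.019), in each case with the higher change in the KO-labelled libraries. ITGA11 entered this test only through the KO-labelled libraries, where it was above 1 TPM. The 2 sets of libraries differ in library series, in histone RNA and in the share of TPM held by the most abundant genes. These differences cannot be told apart from the labels.

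No subunit had a library that stood apart from the others among the 6 overexpression libraries by Dixon's test at the 95% level, over 10 subunits checked.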

How the results depend on the processing

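With 2 libraries a group, calls near the 1.5-fold limit depend on the processing. Every member tested stayed higher in the KO-labelled libraries under each alternative run, with 8 members tested where 1 TPM was required in every library or either KO-labelled library was left out and 10 otherwise, and the count called higher was 6 to 9 when a library was left out (6 without either KO-labelled library, where ITGA11 and ITGB4 no longer pass the filter) and 6 with 1 TPM required in every library. In the overexpression comparison 1 member was called lower with a pseudocount of 0.1 (ITGB4), with no filter and with all 12 libraries in one fit (ITGA11 in both), since low genes are weighed more or enter the test. In line 79 the count called higher was 1 with adjusted P and 1 to 2 with a library left out, and the count called lower was 1 with a pseudocount of 0.1 (ITGB4) and 0 to 1 with a library left out (ITGB4, without the series A control or the series A library of line 79). In line 86 the count called higher was 0 with FPKM and 0 to 1 with a library left out. In line 87 the count called lower was 0 with FPKM and 2 to 3 with a library left out (ITGA3 or ITGB4 joined without a control, and ITGB3 was lost without the series A control). The F test between lines found 3 members with no filter and 3 to 5 with a library left out, and 5 to 8 members were called in the difference between the label effects with a library left out.

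Signs turned for small changes that were never called: ITGAV in the overexpression comparison (0.04198, 0.04196 and 0.01826 without the series A control or either line 87 library), ITGB3 in line 79 (-0.05762) and ITGA2 in lines 86 (-0.0307) and 87 (-0.1085) without the series B control, ITGA2 in line 87 without its series B library (-0.109) and ITGB1 in line 86 without the series A control (-0.06918). The cause was not tested.

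In the knockout comparison the groups shared replicate numbers, but same-numbered libraries hardly deviated together, with r across genes of 0.0244. In the overexpression comparison the controls shared no replicate number with the lines, so libraries were matched by library series. There r was 0.0704 to 0.15 over 6 pairs of groups, 3 of them above 0.1. Neither replicate number nor library series was therefore taken to pair the libraries. With the replicate block 8 members were called higher in the KO-labelled libraries, as without it, and with the block for library series 7 members in place of 6 differed between lines, while counts in each line were the same. Summing ITGB1 and ITGB1P1, chosen after seeing the data, changed no count of calls. TPM carries no counts, so depth limits ITGA1, ITGA11 and ITGB4 most, with a lowest coverage of 3.41, 0.05 and 2.11 bases a position.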

Other observations

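Of the 16 other integrin subunits, ITGAE, ITGB5 and ITGB8 were the only ones tested in both comparisons. ITGAE, which pairs with beta7 on lymphocytes, was at 20.1 and 21.2 TPM in the controls of the knockout comparison, against 28.8 and 28.6 TPM in the KO-labelled libraries, and at 49.4 to 58.8 TPM in the overexpression comparison. ITGB5 was at 45.7 and 42.8 TPM and at 57.6 and 65.3 TPM, and it was above ITGB3 in all 12 libraries. ITGB2, the beta subunit of leukocyte integrins, was called lower in line 79, at 0.26 and 0.75 TPM against 2.36 and 3.08 TPM in the controls (log2 change -1.32 ± 0.21, adjusted P 0.0133 in limma), and was chosen for mention after its values were seen.

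ITGA4, the alpha4 subunit of leukocyte integrins, split by library series and not by label. It was listed at 0 in all 4 libraries of series A and at 0.46, 0.66, 0.55 and 0.35 TPM in the control and lines 79, 86 and 87 of series B. The leukocyte genes CD3E and PTPRC did the same, with CD3E at 0.50 to 0.92 TPM and PTPRC at 0.27 to 0.50 TPM in series B, and at most 0.05 and 0.01 TPM in series A. The T cell and leukocyte markers were thus found in the series B control as well as in its 3 lines. LAMA1, a laminin chain, was at 9.53 and 8.28 TPM in the overexpression controls, at 48.5 and 51.2 TPM in line 79, at 9.32 and 8.64 TPM in line 86 and at 39.8 and 42.4 TPM in line 87, the lines in which ITGA6 was not called. These genes were also picked after their values were seen.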
